A study of Mus musculus with 4 samples.

Results

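Hair root sheath keratins are the structural proteins of the sleeve that surrounds a growing hair, and 5 genes for them were followed here: Krt71, Krt25, Krt27, Krt28 and Krt75. They were chosen by name, with no measured value in the rule, and make up 5 of the 32285 genes listed in each file. Transcripts were counted as unique molecular identifiers (UMIs) on 10x Visium arrays, where each barcoded spot takes up the RNA of a patch of tissue, often from a mixture of cells. The 4 groups, all from wildtype mice and flash-frozen tissue, were facial skin labelled unwounded, facial skin at postoperative day 4, oral mucosa labelled unwounded and oral mucosa at postoperative day 4. Each group held 1 section, so no test was run, and every interval below is an exact 95% interval for counting error only.

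The hair follicle is built of concentric layers, and the inner root sheath moulds the hair shaft as it grows and then breaks down in the upper follicle. Keratin filaments are obligate pairs of a type I and a type II chain. Krt25, Krt27 and Krt28 are type I chains and Krt71 a type II chain of the inner root sheath, where mutations of Krt71 or Krt25 give wavy or curly coats in mice. Krt75 is a type II keratin of the companion layer, a single sheet of cells between the inner and the outer root sheath, and of the hair medulla. Oral mucosa has no hair follicles.

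The facial sections held 671 (labelled unwounded) and 1141 (day 4) spots with 11939479 and 9934290 UMIs, and the oral ones 1288 (unwounded) and 430 (day 4) spots with 7285023 and 3004174. A count of 3 UMIs, the floor used where a section had none, was worth 0.251, 0.302, 0.412 and 0.999 counts per 1000000 UMIs of the section (CPM) in that order. The section labelled unwounded facial skin went against its label in 8 inflammatory genes, which summed to 934 CPM there against 39.96 CPM at day 4. The unwounded sections carried 587 and 280 UMIs of the Y-linked Ddx3y and 1 or 0 of Xist, and the day 4 sections 909 and 84 of Xist and 0 of Ddx3y, so wounding and these genes cannot be told apart. Spot barcodes mark array positions, and pairs of sections shared 46 to 347 of them.

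Upstream sequence is shown for all 5 genes because the members differ in how their transcripts were spread over the facial sections. All 5 are protein-coding and lie on the minus strand of GRCm38.p6 in both keratin clusters of the mouse genome. The type I genes lie on chromosome 11, Krt25 (ENSMUSG00000035831) from 99315516 to 99322951, Krt27 (ENSMUSG00000017588) from 99345565 to 99351118 and Krt28 (ENSMUSG00000055937) from 99365007 to 99374903. The type II genes lie on chromosome 15, Krt75 (ENSMUSG00000022986) from 101563343 to 101573904 and Krt71 (ENSMUSG00000051879) from 101733949 to 101743097. The RefSeq table of promoters matched all 5, and the 250 bases before each annotated start are given 5′ to 3′ on the gene's strand, with TATAAA and GATAA in capitals on the printed strand. The windows are chr15:101743098-101743347, chr11:99322952-99323201, chr11:99351119-99351368, chr11:99374904-99375153 and chr15:101573905-101574154, in the order printed.
Krt71: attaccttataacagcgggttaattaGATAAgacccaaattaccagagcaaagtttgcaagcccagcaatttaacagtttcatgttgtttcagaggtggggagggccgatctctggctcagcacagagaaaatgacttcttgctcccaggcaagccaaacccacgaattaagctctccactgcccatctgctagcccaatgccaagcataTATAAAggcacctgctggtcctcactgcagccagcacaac
Krt25: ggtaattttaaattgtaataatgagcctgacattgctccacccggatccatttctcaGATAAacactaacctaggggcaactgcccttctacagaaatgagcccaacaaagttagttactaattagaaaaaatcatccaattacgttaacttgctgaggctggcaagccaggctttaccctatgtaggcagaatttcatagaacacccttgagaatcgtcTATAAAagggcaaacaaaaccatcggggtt
Krt27: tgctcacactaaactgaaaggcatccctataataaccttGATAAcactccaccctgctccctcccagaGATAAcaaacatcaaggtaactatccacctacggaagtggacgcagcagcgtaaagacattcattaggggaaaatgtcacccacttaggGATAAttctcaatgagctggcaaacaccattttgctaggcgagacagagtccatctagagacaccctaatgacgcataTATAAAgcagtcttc
Krt28: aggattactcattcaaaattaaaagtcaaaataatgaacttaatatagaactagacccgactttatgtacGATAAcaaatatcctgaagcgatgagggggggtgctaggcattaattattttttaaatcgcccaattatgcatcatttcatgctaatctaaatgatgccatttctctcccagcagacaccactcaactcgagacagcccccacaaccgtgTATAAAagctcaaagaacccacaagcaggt
Krt75: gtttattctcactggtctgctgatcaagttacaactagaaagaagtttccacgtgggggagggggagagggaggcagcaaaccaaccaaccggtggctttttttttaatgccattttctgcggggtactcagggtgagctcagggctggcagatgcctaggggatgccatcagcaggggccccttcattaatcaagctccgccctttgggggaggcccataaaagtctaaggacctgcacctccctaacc

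Each of the 4 inner root sheath promoters held the TATA box letters TATAAA on the gene's strand, starting 40 (Krt71), 30 (Krt25), 15 (Krt27) and 30 (Krt28) bases before the annotated start. Each also held GATAA, the letters bound by GATA factors such as Gata3, a regulator of the inner root sheath, 1 time in Krt71, Krt25 and Krt28 and 3 times in Krt27. The Krt75 window held no exact match to either, and near matches such as its cataaa were not counted. Over both strands of 32851 promoter windows of the same length, TATAAA was in 12.4% and GATAA in 22.6% of windows. A homeodomain core, TAATTA, stood in 3 of the 4 (not Krt27) and in 4.84% of all windows, and a Lef1 and Tcf core, CTTTGA, on the opposite strand of Krt28 alone and in 13.8% of all. The motifs were picked with the sequences in view and their matches, none of which overlapped, are letters in a window and not sites of binding.

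All 5 genes were found in both facial sections and hardly at all in oral mucosa. Krt71, the type II partner, had 185 UMIs (15.5 CPM, 13.3 to 17.9) in facial skin labelled unwounded, 199 (20.03 CPM, 17.3 to 23.0) at day 4 and 0 in both oral sections. Krt25, a type I chain, had 296 UMIs (24.8 CPM, 22.0 to 27.8) and 270 (27.2 CPM, 24.0 to 30.6) in the same facial order and 1 in each oral section. The facial intervals of both genes overlapped.

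Krt27, the least counted of the type I chains, had 45 UMIs (3.77 CPM, 2.75 to 5.04) in facial skin labelled unwounded, 121 (12.2 CPM, 10.1 to 14.6) at day 4, 0 in unwounded oral mucosa and 1 at day 4. Krt28 had 162 UMIs (13.6 CPM, 11.6 to 15.8), 221 (22.2 CPM, 19.4 to 25.4), 0 and 0. For these type I chains the facial intervals did not overlap and the day 4 section was the higher one. Krt75 of the companion layer had 802 UMIs (67.2 CPM, 62.6 to 72.0), 380 (38.3 CPM, 34.5 to 42.3), 11 (1.51 CPM, 0.754 to 2.70) and 0, in the order facial unwounded, facial day 4, oral unwounded, oral day 4. It was the one member with the day 4 facial section below the other facial section, and the one with more than 1 UMI in an oral section. Because the arrays tag the 3′ end of a transcript and capture may differ between genes, these values compare sections and not genes.

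**Figure D1:**
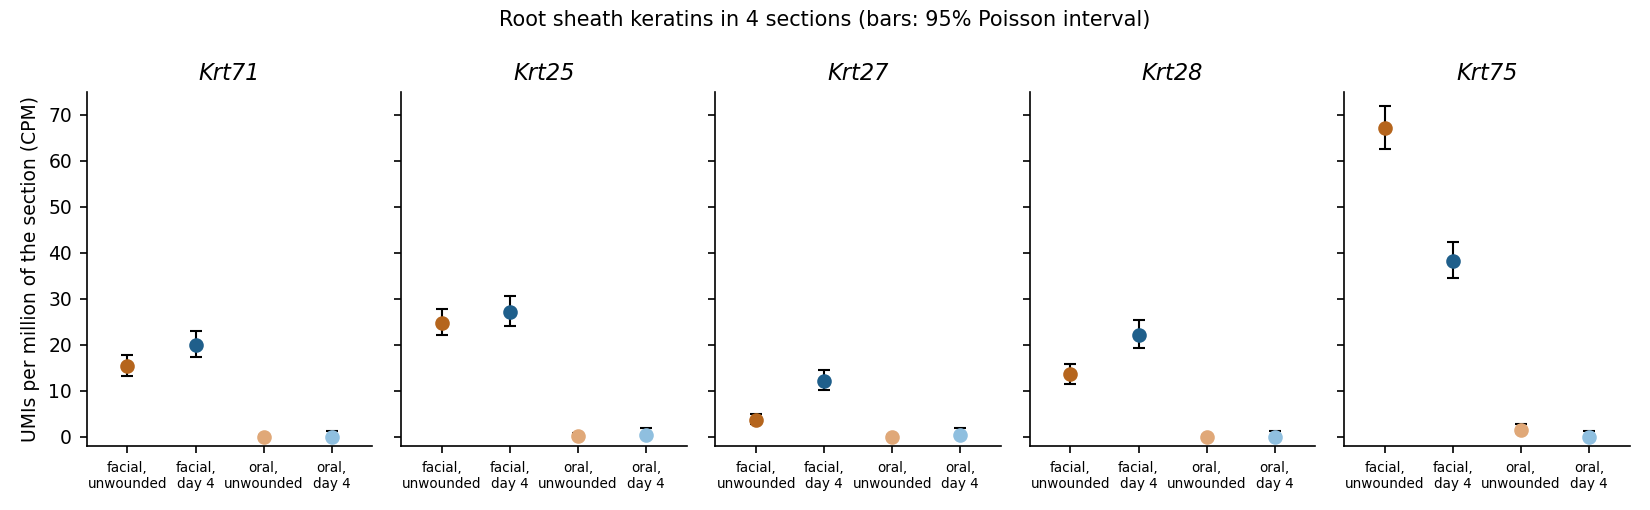
Level of each gene (CPM, with the exact 95% Poisson interval) in the 4 sections, 1 point per section. Krt27 and Krt28 were higher in day 4 facial skin, Krt75 was lower there, and all oral points lie at or below 1.51 CPM.

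The comparison of facial skin at day 4 with facial skin labelled unwounded asks how follicle transcripts differ between these sections. Wounding cannot be told apart in it from whatever else differs between the animals, as Xist and Ddx3y do. A gene was called when its CPM differed at least 1.5-fold, the intervals did not overlap and both sections held at least 20 UMIs together. Krt27 was 3.23-fold higher at day 4 (log2 ratio 1.69, 1.19 to 2.22) and Krt28 1.64-fold higher (0.71, 0.41 to 1.01). Krt75 was 1.76-fold lower (-0.81, -0.99 to -0.63). Krt71 (0.37, 0.07 to 0.67) and Krt25 (0.13, -0.11 to 0.38) were not called. So 2 of 5 members were higher and 1 lower, while of 14231 genes tested 6.09% were called higher and 8.59% lower. The member median, with 10 CPM added to both sides, was 0.24 against -0.04 over all genes.

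The inner root sheath genes summed to more at day 4 and Krt75 to less, and the sum of all 5 hardly differed. The sum of the 4 stood at 688 UMIs (57.6 CPM, 53.4 to 62.1) in facial skin labelled unwounded and 811 (81.6 CPM, 76.1 to 87.5) at day 4, a 1.42-fold difference that misses the fold for a call (0.50, 0.35 to 0.65). The sum of all 5 was 1490 UMIs (125 CPM) and 1191 (120 CPM), with a log2 ratio of -0.06 (-0.17 to 0.05). In spots, fewer cells of a type and less RNA per cell cannot be told apart. Leaving out the 80 spots of the unwounded-labelled section (5.55% of its UMIs) and the 3 at day 4 where inflammatory genes made up at least 0.1% of UMIs gave the same 3 calls, with log2 ratios of 1.64 for Krt27, 0.66 for Krt28 and -0.87 for Krt75. This left 1462 of the 1490 member UMIs labelled unwounded in place, so the calls could hardly change. The 0.1% limit was chosen after the data were seen. The reason was that leaving out spots of at least 3 inflammatory UMIs removed 519 spots and 86.7% of the UMIs labelled unwounded. Leaving out those spots gave 2.71 for Krt27 and 3.19 for Krt28, from only 3 and 4 UMIs left labelled unwounded. It gave -1.59 for Krt75, from 186. The part of inflammation in these differences was not tested.

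Of the 3 called members, Krt27 stayed past the 1.5-fold limit under every alternative (log2 ratio 0.69 to 3.27), while the others did not. With each section split by array position into 4 parts, Krt28 fell short of it without part 2, 3 or 4 of the section labelled unwounded (0.26, 0.29 and 0.53) and without part 2 of day 4 (0.35), and also with 10 CPM added (0.45). Krt75 fell short of it without part 1 or 4 of the section labelled unwounded (-0.53 and -0.48), per basal keratinocyte UMI (-0.57) and per hair shaft keratin UMI (-0.21). Most hair shaft keratin UMIs labelled unwounded were of Krt84, which was called lower at day 4, so that last ratio also follows Krt84.

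A single spot weighed on the unwounded-labelled values of the inner root sheath genes. That spot held 75 of the 185 Krt71 UMIs, 81 of the 296 of Krt25, 12 of the 45 of Krt27 and 62 of the 162 of Krt28, together 33.4% of the section's 688. It held 14 of the 802 Krt75 UMIs. The richest day 4 spot held 41 of 811 (5.06%). Without the richest spot of each section the 4 genes stood at 38.5 and 77.6 CPM, a 2.02-fold difference (1.01, 0.84 to 1.18). Without the 10 richest spots Krt71 (2.39-fold) and Krt25 (1.73-fold) also passed the fold, so that all 4 inner root sheath genes were called higher. Those spots were picked by the members' own UMIs, and 329 of 688 UMIs of the 4 genes were left labelled unwounded and 668 of 811 at day 4. The removal thus raises the ratio by its choice of spots, and the share of all genes called after it was not measured. Krt75 kept its log2 ratio, at -0.79 and -0.80.

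**Figure D2:**
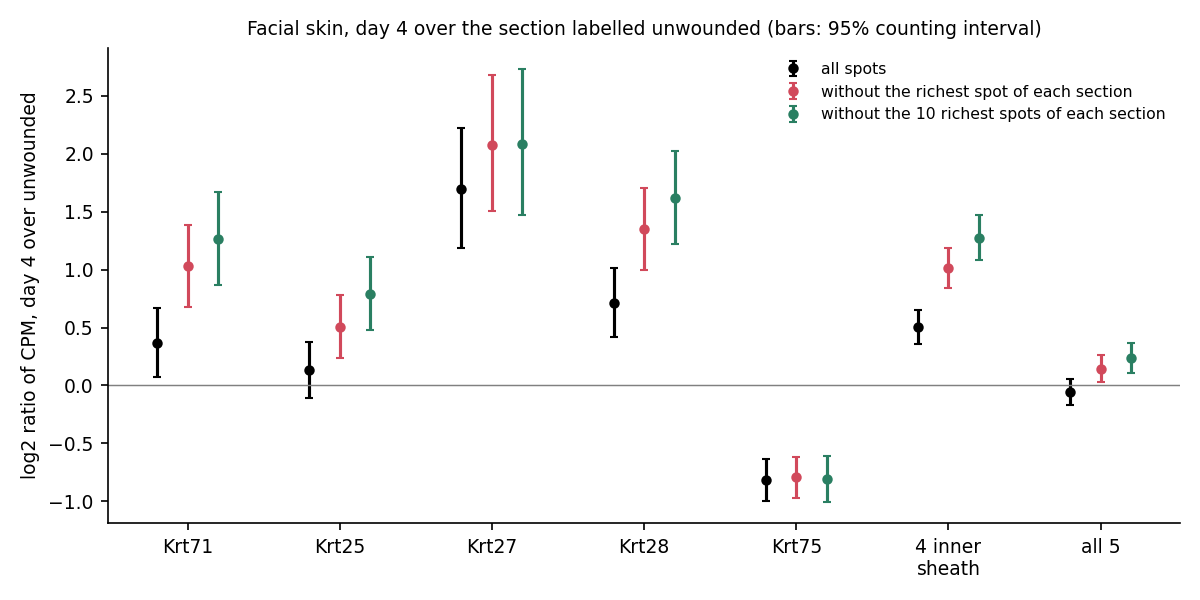
Log2 ratio of CPM, day 4 over the section labelled unwounded, for each gene, the 4 inner root sheath genes together and all 5, with counting intervals. Black points use all spots, red ones leave out the richest spot of each section and green ones the 10 richest: the 4 inner root sheath ratios move up as rich spots are left out (the sum from 0.50 to 1.01 and 1.27), and Krt75 stays near -0.8.

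Each facial array carried 2 separate pieces of tissue, called upper and lower here by their place on the array, and the labels do not say what the pieces are. The sum of the inner root sheath genes differed more between pieces of 1 section than between sections, and so did Krt71, Krt25 and Krt28. For Krt27 the pieces differed 3.03-fold in the section labelled unwounded (41 and 4 UMIs, log2 ratio 1.60, 0.13 to 3.54) and 2.32-fold at day 4 (1.21, 0.67 to 1.77). The 3.23-fold between sections (1.69, 1.19 to 2.22) overlapped both in its interval, so these differences cannot be ranked. For Krt75 the upper piece labelled unwounded was 2.22-fold below the lower one (484 and 317 UMIs, log2 ratio -1.15, -1.36 to -0.94). Its 1.76-fold difference between sections (-0.81, -0.99 to -0.63) was smaller but overlapped in its interval, so these cannot be ranked either. The day 4 pieces hardly differed in Krt75 (-0.006, -0.32 to 0.30). In the section labelled unwounded the 4 genes summed to 655 UMIs (71.3 CPM, 66.0 to 77.0) in the upper piece of 519 spots and to 32 (11.8 CPM, 8.06 to 16.6) in the lower piece of 142 spots, a 6.05-fold difference. At day 4 they summed to 476 (129 CPM, 117 to 141) in the upper piece of 483 spots and 331 (53.2 CPM, 47.6 to 59.2) in the lower of 651, a 2.42-fold difference. Median depths were 16757 and 15591.5 UMIs per spot in the first section and 5764 and 4931 in the second.

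Of the inner root sheath genes only Krt27 and Krt28 had both day 4 pieces above both other pieces, and in each the nearest pieces overlapped in their intervals. Krt27 had 4.46 CPM (3.20 to 6.06) and 1.47 CPM (0.402 to 3.77) in the upper and lower piece of the section labelled unwounded, and 18.6 CPM (14.5 to 23.6) and 8.04 CPM (5.96 to 10.6) at day 4. Krt75 ran the other way, with 52.7 CPM (48.1 to 57.6) and 117 CPM (104 to 130) in the upper and lower piece labelled unwounded and 38.1 CPM (32.1 to 44.9) and 38.2 CPM (33.5 to 43.4) at day 4. Both of its day 4 pieces lay below both others. Krt28 had 16.8 and 2.95 CPM in the section labelled unwounded and 30.3 and 17.5 CPM at day 4, so its upper unwounded and lower day 4 pieces were close. Krt71 (18.9 and 3.68, then 35.7 and 10.4 CPM) and Krt25 (31.1 and 3.68, then 44.0 and 17.2 CPM) had a day 4 lower piece below the unwounded upper piece. The lower piece labelled unwounded held 4373 CPM of 10 skeletal muscle markers against 193 CPM in the upper one. Inflammatory genes went the other way, at 184 CPM in the lower and 1158 CPM in the upper piece. The day 4 pieces differed in fibroblast markers (15606 CPM upper, 4624 CPM lower) and in interfollicular epidermis markers (32143 CPM upper, 61535 CPM lower). The part of these tissues in the values was not tested.

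**Figure D3:**
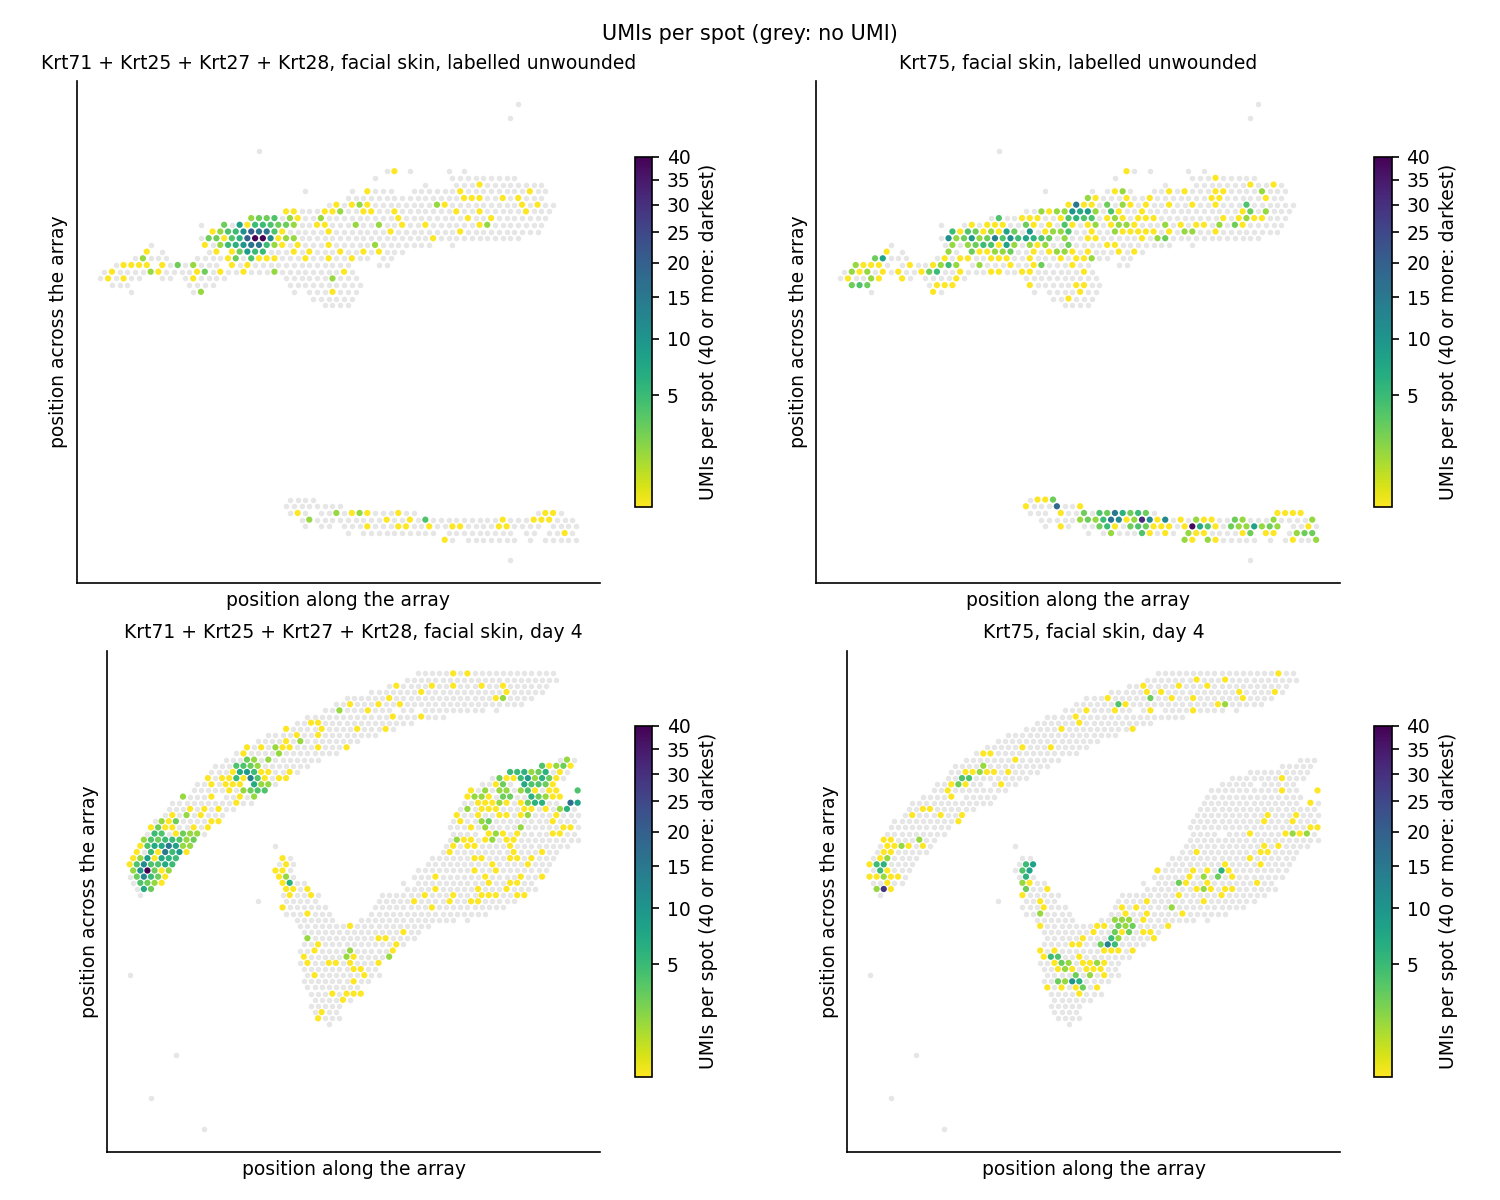
Spots of the facial sections at their array positions, coloured by UMIs of the 4 inner root sheath keratins together (left) or of Krt75 (right), for the section labelled unwounded (top) and day 4 (bottom). The inner root sheath transcripts gather in 1 dense area of the upper unwounded piece and in several areas at day 4, and Krt75 is spread along both pieces of the section labelled unwounded.

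The 4 inner root sheath genes were packed into few spots in the section labelled unwounded and were more spread at day 4. There 6 spots held 50% of their UMIs, against 55 spots at day 4. For Krt75 the numbers were 46 and 37. The 10 richest spots of each gene held 64.3% of Krt71, 59.5% of Krt25, 48.9% of Krt27 and 60.5% of Krt28 in the section labelled unwounded, 22.8% of Krt75, and 11.1% for the median of 10319 genes of at least 100 UMIs. Krt27, with 45 UMIs there, was below that minimum and not among those genes, and the median is not matched for count. At day 4 the same shares were 24.6%, 25.9%, 24.8%, 19.0% and 25.5%, with a median of 10.9% over 9755 genes.

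**Figure D4:**
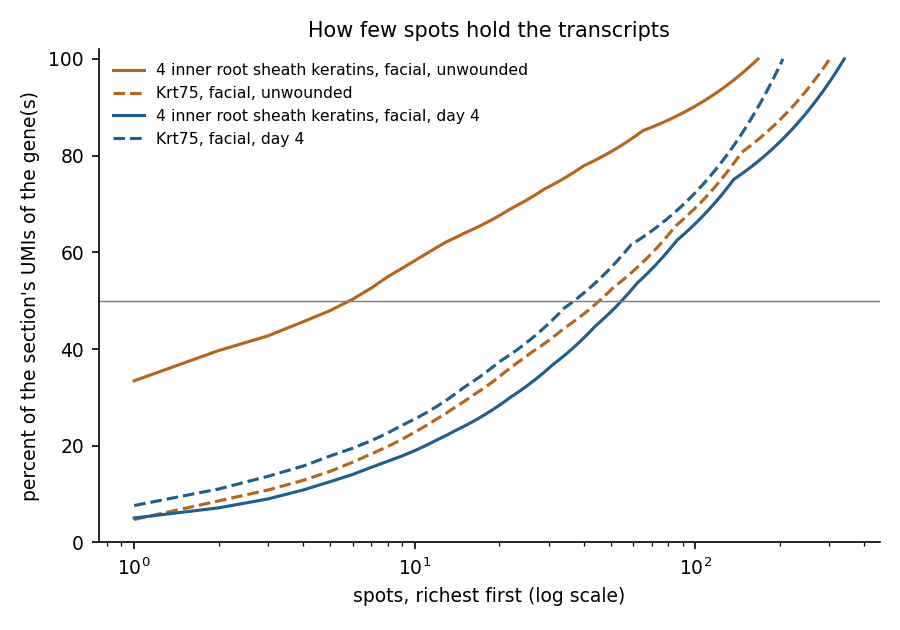
Cumulative percent of a section's UMIs against the number of spots taken from the richest down (log scale), for the 4 inner root sheath keratins (solid) and Krt75 (dashed) in both facial sections. The solid line of the section labelled unwounded starts at 33.4% with 1 spot and crosses 50% (grey line) at 6 spots, while the other 3 lines cross it between 37 and 55.

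At least 1 UMI of the 4 inner root sheath genes was found in 167 of 671 spots (24.9%, 21.7 to 28.3) labelled unwounded and in 339 of 1141 (29.7%, 27.1 to 32.5) at day 4. Krt75 was found in 301 (44.9%, 41.1 to 48.7) and 205 (18.0%, 15.8 to 20.3). Depths differed (median 16128 and 5372 UMIs per spot), so the 653 and 1096 spots of at least 1000 UMIs were also thinned to 1000 UMIs. The expected shares of these spots were 3.11% and 10.7% for the inner root sheath genes and 6.01% and 3.67% for Krt75. The thinned shares thus moved in opposite directions for the inner root sheath genes and for Krt75. As a background, oral spots rich in muscle transcripts (297 spots, median 14830 UMIs) held a UMI of the 4 genes in 1 spot (0.337%, with an exact upper limit of 1.86%) and of Krt75 in 0, which allows a share of up to 1.01% at 3 counts of the total and has an exact upper limit of 1.23%.

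Around the richest spot of the section labelled unwounded the inner root sheath signal fell in a steep gradient. It was 7345 CPM in the spot itself, 932 CPM (780 to 1105) in its 6 neighbours, 316 CPM (254 to 389) at 2 steps, 134 CPM (99.5 to 176) at 3 steps and 71.1 CPM (46.8 to 103) at 4 steps. Beyond 8 steps, in 546 spots, it was 12.7 CPM (10.6 to 15.2). Krt75 was also higher near that spot, at 447 CPM in it, 106 CPM (59.3 to 175) beside it, 151 CPM (109 to 204) at 2 steps and 61.8 CPM (56.9 to 67.1) beyond 8 steps, where 582 of its 802 UMIs lay. At day 4 the richest spot had 5633 CPM of the 4 genes, its neighbours 825 CPM (604 to 1101) and the spots 3 steps away 144 CPM (101 to 199). A second rise to 717 CPM (510 to 980) followed at 5 steps, and 55.5 CPM (50.7 to 60.5) remained in the 1068 spots beyond 8 steps. Krt75 around that spot stood at 137 CPM (3.48 to 765) in it, 251 CPM (137 to 421) beside it, 63.6 CPM (31.8 to 114) at 2 steps and 140 CPM (98.2 to 194) at 3 steps, against 33.7 CPM (30.0 to 37.7) beyond 8 steps. Krt75 was thus higher beside the richest inner root sheath spots than far from them in the day 4 section, with intervals that did not overlap.

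Areas of adjoining spots with at least 10 UMIs of the 5 genes were sorted by whether inner root sheath or Krt75 UMIs were the more numerous. Labelled unwounded, Krt75 made up 12.9% of the member UMIs in 1 area and 69.2% to 100% in the others. At day 4 its share was 3.23% to 16.0% in the areas of the first kind and 80.6% to 100% in those of the second. In the section labelled unwounded 1 area of 13 spots held 425 UMIs of the 4 genes and 63 of Krt75, the most of both in any area there. The other 10 areas, of 1 to 3 spots, held 225 Krt75 UMIs and 19 of the 4 genes. At day 4, 4 of 7 areas held mostly inner root sheath UMIs (154 UMIs of the 4 genes and 19 of Krt75) and 3 mostly of Krt75 (52 Krt75 and 7 of the 4). With at least 5 or 20 UMIs per spot as the limit the areas numbered 14 or 3 in the section labelled unwounded and 14 or 2 at day 4.

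Krt75 and the inner root sheath genes shared spots in part. Krt75 was found in 61.7% of the spots with an inner root sheath UMI and 39.3% of the others in the section labelled unwounded (median depths 20491 and 14818.5 UMIs), and in 22.1% and 16.2% at day 4 (5634 and 5224). It was thus found more often where the others were, in spots that were also deeper, and the part of depth was not tested. The inner root sheath genes did not always share spots either: 43.3% of the 67 Krt28 spots labelled unwounded and 57.2% of the 166 at day 4 held none of the other 3. Of the spots labelled unwounded 22 held at least 5 UMIs of the inner root sheath genes, 34 at least 5 of Krt75 and 5 both. At day 4 the numbers were 44, 15 and 3. Across spots of at least 1000 UMIs (653 and 1096), the pairwise Pearson correlations among the 4 inner root sheath genes were 0.36 to 0.67 in the section labelled unwounded and 0.25 to 0.55 at day 4. Without the 10 richest spots they were -0.01 to 0.40 and 0.19 to 0.49. Those of Krt75 with each of the 4 were 0.12 to 0.20 and 0.01 to 0.06, and at this sparseness such values show little. The points share a section and its depth, so these are descriptions.

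Over whole sections, the make-up of the inner root sheath sum differed between the facial sections in Krt27 and Krt25. Krt27 gave 6.54% (4.81 to 8.65) of the 688 UMIs labelled unwounded and 14.9% (12.5 to 17.6) of the 811 at day 4. Krt25 gave 43.0% (39.3 to 46.8) and 33.3% (30.1 to 36.7). Krt71 (26.9% and 24.5%) and Krt28 (23.5% and 27.3%) had overlapping intervals. Within the section labelled unwounded Krt27 made up 4.00% (2.35 to 6.33) of the 13-spot area and 10.6% (7.19 to 15.0) outside it, with intervals that did not overlap. At day 4 it made up 15.5% of the largest area, of 5 spots, and 14.9% (12.3 to 17.7) outside it. Krt25 made up 39.5% (33.6 to 45.7) outside the largest area labelled unwounded and 32.3% (28.9 to 35.9) outside that at day 4. Outside the largest areas the intervals of the facial sections thus overlapped for both Krt27 and Krt25.

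Other genes of the inner root sheath were measured beside the members. Of 8 such genes in the files 6 had at least 20 UMIs over both facial sections, and 1 was called higher and 1 lower at day 4 (median 0.24, all genes -0.04). Gata3, the transcription factor, was 1.63-fold higher and Tgm3, the transglutaminase that cross-links trichohyalin, 1.51-fold lower. Krt73, a further type II chain of the inner root sheath, had 89 and 107 UMIs (0.53, 0.11 to 0.95), and Padi3, which citrullinates trichohyalin, 22 and 27. Neither was called. Gata3 (110 and 180 CPM) and Tgm3 (84.4 and 55.9 CPM) are also expressed in interfollicular epidermis.

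Spots with at least 5 inner root sheath UMIs were set beside spots with at least 5 Krt75 UMIs and fewer than 5 of the others, and the rest, limits set after the data were seen. Tchh, the gene of trichohyalin, the granule protein of the inner root sheath, stood at 122 CPM (95.1 to 153) in the 22 inner root sheath-rich spots labelled unwounded, 9.23 CPM (3.39 to 20.1) in the 29 Krt75-rich spots and 8.60 CPM (6.93 to 10.5) in the other 620. At day 4 it stood at 220 CPM (171 to 279) in 44 spots, 4.24 CPM (0.107 to 23.6) in 12 and 11.9 CPM (9.83 to 14.4) in 1085. Krt73 followed the same order, with 118, 3.08 and 1.59 CPM in the section labelled unwounded and 121, 8.49 and 7.14 CPM at day 4. Both genes lay above the other classes without overlap, but the list of 8 they come from did not. It summed to 564 CPM in the inner root sheath-rich spots, 351 CPM in the Krt75-rich ones and 1098 CPM in the rest labelled unwounded, and to 769, 738 and 1272 CPM at day 4. In the rest most of that sum was Cdsn, the gene of corneodesmosin, also made in epidermis and named here after its values were seen, at 186, 241 and 882 CPM and at 163, 492 and 1016 CPM. Gata3 stood at 89.5, 73.8 and 113 CPM in the section labelled unwounded, and Tgm3 at 25.3, 23.1 and 91.4 CPM. Padi3, with few UMIs, stood at 22.0, 0 and 0.84 CPM and at 22.3, 4.24 and 2.02 CPM.

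Outer root sheath and bulge genes summed to more in the Krt75-rich spots (3121 CPM labelled unwounded, 3891 CPM at day 4) than in the inner root sheath-rich ones (1307 and 2384 CPM) or the rest (842 and 1644 CPM). Most of each sum was Krt15, a keratin of bulge and basal cells, so the sums largely follow this gene. Krt15 stood at 2220 CPM (2107 to 2337) in the Krt75-rich spots labelled unwounded, 706 CPM (640 to 777) in the inner root sheath-rich ones and 536 CPM (522 to 550) in the rest. At day 4 the values were 2966 CPM (2750 to 3194), 1663 CPM (1523 to 1812) and 1287 CPM (1264 to 1310). Sox9, a transcription factor of the outer root sheath, stood at 248, 96.3 and 74.97 CPM and at 280, 131 and 62.4 CPM. Lgr6, a receptor of the upper follicle, stood at 135, 84.4 and 41.9 CPM and at 97.6, 35.1 and 36.1 CPM, and Lhx2, a transcription factor of follicle stem cells, at 114, 127 and 28.4 CPM and at 293, 246 and 70.0 CPM. For Lgr6 and Lhx2 the intervals of both rich classes overlapped in each section. The rich spots were deeper (median 27080 and 22179 UMIs against 15632.5 in the rest, and 5818 and 17968 against 5192 at day 4), and the part of depth was not tested.

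**Figure D5:**
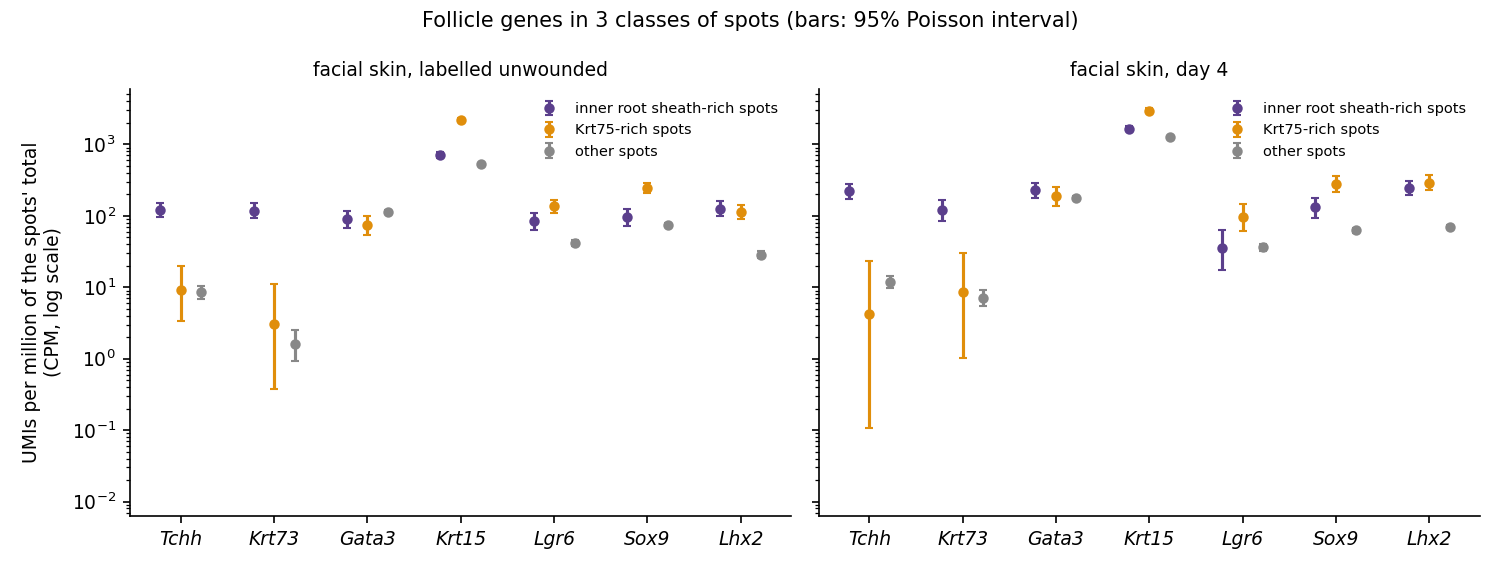
Level of 7 follicle genes (CPM of the spots' total, log scale, with 95% Poisson intervals) in inner root sheath-rich, Krt75-rich and other spots of the section labelled unwounded (left) and day 4 (right). Tchh and Krt73 stand apart in the inner root sheath-rich spots, and Krt15 and Sox9 are highest in the Krt75-rich spots.

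Cell types around the follicle also differed between these classes. Fibroblast markers summed to 15543 CPM in the inner root sheath-rich spots labelled unwounded, 7825 CPM in the Krt75-rich ones and 5670 CPM in the rest, and to 14542, 2507 and 8689 CPM at day 4. Interfollicular epidermis markers were lowest in the inner root sheath-rich spots and highest in the rest, at 6199, 7609 and 30097 CPM and at 8056, 25287 and 52580 CPM. The 4 other companion layer and stress keratins did not follow Krt75 in the section labelled unwounded, at 3389, 4590 and 9714 CPM. At day 4 they stood at 1937, 5083 and 4789 CPM, with overlapping intervals in the last pair. Melanocyte markers were higher in both rich classes than in the rest, at 238, 128 and 59.9 CPM and at 431, 416 and 140 CPM. Inflammatory genes summed to 422, 280 and 1003 CPM in the section labelled unwounded, so both rich classes held less of them than the rest.

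The remaining hair lists differed as follows between day 4 and the facial section labelled unwounded. Of 12 hair shaft keratins in the files 3 had at least 20 UMIs, and 2 were called higher and 1 lower: Krt35 (15 and 37 UMIs, 2.96-fold higher), Krt32 (19 and 37, 2.34-fold higher) and Krt84 (144 and 18, 6.66-fold lower). Most hair shaft keratins were thus at or near the detection limit in both sections. Of 10 measured regulators of the hair matrix 5 were higher and 0 lower (median 0.25). Msx1 (2.73-fold), Shh (2.00-fold), Msx2 (1.78-fold) and Dlx3 (1.66-fold), a signal and homeobox factors of the growing follicle, were among the higher ones.

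Of 7 outer root sheath and bulge genes 2 were higher and 0 lower (median 0.18), Lhx2 2.13-fold and Krt15 2.10-fold. All 4 companion layer and stress keratins were lower (median -0.96): Krt6a 2.11-fold, Krt16 2.08-fold, Krt17 1.84-fold and Krt6b 1.52-fold. Krt75 was lower together with these keratins, which interfollicular epidermis also makes when stressed. Of 9 dermal papilla genes 2 were higher, Corin (5 and 43 UMIs) and Prom1 (12 and 40), and 1 was lower. Of 6 melanocyte genes 4 were higher: Tyr 3.37-fold, Dct 2.73-fold, Mlana 2.60-fold and Pmel 2.36-fold. None of 6 cell division genes was called in either direction.

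The genes whose pattern was most like the members were found among 9570 genes of at least 100 UMIs in each facial section, by the lower of both sections' Pearson correlations across spots. For the sum of the 5 these were Igfbp4, Vim, Ptch1, Lgals1, Igfbp7, Dct, Tchh, Lmo4, Tyrp1 and Hmgb1, with lower correlations of 0.23 to 0.27. The search was repeated for the 4 inner root sheath genes and for Krt75. Tchh led for the former (0.42 in the section labelled unwounded and 0.51 at day 4), and the next gene, Fabp4, had 0.30 and 0.26. For Krt75 the first 5 were Sfrp1 (0.44 and 0.22), Shisa2 (0.45 and 0.21), Mgll (0.29 and 0.21), Sox9 (0.39 and 0.20) and Krt15 (0.43 and 0.20). With Spearman's correlation or deeper spots 4 and 2 of the 10 genes for the sum stayed in the list, 5 and 4 for the inner root sheath genes and 7 and 5 for Krt75.

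The comparison of oral mucosa with facial skin asks how tissues with and without hair differ. Unwounded, all 5 members were lower in oral mucosa, as were 59.7% of 14026 genes tested. Krt71 was at least 37.6-fold lower, Krt28 at least 32.9-fold and Krt27 at least 9.15-fold, each with 0 oral UMIs set to the floor. Krt25 had 1 oral UMI (log2 ratio -7.50, -12.81 to -5.01), and Krt75, with 11, was 44.5-fold lower (-5.48, -6.48 to -4.63). The member median was -1.35 against -0.60 over all genes, both with 10 CPM added.

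At day 4 all 5 were again lower, beside 35.5% of 13633 genes. Krt75 was at least 38.3-fold, Krt28 at least 22.3-fold and Krt71 at least 20.1-fold lower, and Krt25 and Krt27 had 1 oral UMI each (-6.35, -11.66 to -3.86, and -5.19, -10.51 to -2.69). The median was -1.69 against -0.36 over all genes. The oral wound comparison could not be made: no member reached 20 UMIs over both oral sections, where 20.6% of 12544 genes were called higher and 3.56% lower. Each oral section enters both a tissue and a wound comparison, so these values are not independent.

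The 11 Krt75 UMIs of unwounded oral mucosa lay in 8 spots with epithelial transcripts. In each of the 8, Krt13, the keratin of oral epithelium, outnumbered Acta1, the actin of skeletal muscle, and it took 5.59% to 9.69% of the spot's UMIs against 2.71% in the whole section. The 1 inner root sheath UMI of that section lay in a muscle-rich spot, and both of those at day 4 lay in other spots. In day 4 oral mucosa 0 of 430 spots held a Krt75 UMI, which allows a share of up to 0.698% at 3 counts of the total and has an exact upper limit of 0.854%. Of the other inner root sheath genes Krt73 had 0 UMIs in both oral sections, Gata3 had 4 and 3, and Tgm3, which oral epithelium also makes, was 13.3-fold higher in the oral than in the facial section, both unwounded.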

How the data were processed

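Visium sections of facial skin and oral mucosa, unwounded and at postoperative day 4, 1 each, were analysed. Per the file headers the authors deposited raw UMI counts per gene and spot from Space Ranger 1.3.1, without normalization; the submitters' processing notes also name Seurat and mm10. For the aligner, the annotation and the strand setting: not given in the sources used here. All deposited spots lay under tissue and were kept, and array positions (another unit, row and column numbers) came from the deposited position lists. Doublet calling does not apply to spots.

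UMIs were summed per section and scaled to CPM, with exact Poisson intervals, exact conditional intervals for ratios and Clopper-Pearson intervals for shares, all at 95% and for counting error only. There being 1 section per group, no p-value was computed. PCR duplicates are removed by the UMIs. The calls and intervals were tested on simulated Poisson counts, which hold counting error only and no variation between pieces, spots or animals. Python 3.11.15, numpy 2.4.6, scipy 1.17.1, pandas 2.3.3 and, for TMM scaling, edgeR were used. The edgeR step gave scaling factors only.

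Named genes were the 5 members, up to 4 genes per list with the largest log2 ratio and at least 20 UMIs, and the 10 genes most like the members. The members and gene lists were chosen with earlier results of these data known. In 2 lists 1 gene each is not analysed here. The split into inner root sheath genes and Krt75, the spot classes, the tissue pieces, the richest single spot and the limit of 0.1% inflammatory UMIs were added after seeing the data.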

Additional observations from a re-analysis of the deposited data

How the results depend on the processing

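For the facial comparison of day 4 with the section labelled unwounded, the log2 ratio of the 4 inner root sheath genes (0.50) was 1.96 as a mean over spots, 2.35 without spots of at least 3 inflammatory UMIs, which leaves out 519 of 671 spots, 0.75 per basal keratinocyte UMI, 1.11 per hair shaft keratin UMI, 1.27 without the 10 richest spots and 1.01 without the richest. The 2.35 rests on only 26 UMIs of the 4 genes left labelled unwounded. The ratio ranged from 0.023 to 2.42 when 1 of 4 parts of a section was left out. The sum of all 5 (-0.06) changed sign under several of these, at 0.93, 0.19, 0.54, 0.24 and 0.15 (mean over spots, per basal keratinocyte UMI, per hair shaft UMI, without 10 spots, without 1), and ranged from -0.48 to 0.77 over the parts. Krt75 (-0.81) stayed below 0, at -1.59 without spots of at least 3 inflammatory UMIs and -1.55 to -0.48 over the parts. It fell short of 1.5-fold without some parts, per basal keratinocyte UMI (-0.57) and per hair shaft UMI (-0.21). The facial ratios per hair shaft UMI also follow Krt84, which held most of those UMIs labelled unwounded and was lower at day 4. The 3 called members became 1 with a 2-fold limit and 5 without the 10 richest spots, which were picked by the members' own UMIs. Krt28 (0.71) ranged from 0.26 to 2.68 over the parts.

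Oral over facial, the sum (-6.24 unwounded, -7.49 at day 4) was -4.05 as a mean over spots, -4.51 in spots with under 1% muscle UMIs, -3.89 per basal keratinocyte UMI, -7.52 per hair shaft UMI and -3.53 with 10 CPM added in the unwounded sections, and -3.61 with 10 CPM added at day 4. The parts gave -7.02 to -5.42 and -7.77 to -7.27. The oral wound ratio (-1.31, from 12 and 2 UMIs) ranged from -1.69 to -0.53 over the parts. TMM and a total without abundant genes moved none of these sums beyond its interval. The cause of each change was not tested. With 1 section per group, variation between animals is unknown. No paired analysis was possible because each group held 1 section.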

Other observations

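Keratins of the hair shaft were not limited to facial skin. Krt32 had 222 UMIs (30.5 CPM) in unwounded oral mucosa and 33 (10.98 CPM) at day 4, against 19 (1.59 CPM) and 37 (3.72 CPM) in the facial sections, 19.1-fold more in the oral than in the facial section, both unwounded. Krt36 had 25 and 6 oral UMIs and 1 and 2 facial ones. Krt84, with 144 UMIs in facial skin labelled unwounded, had 3 of them in the inner root sheath-rich spots and 1 in the Krt75-rich ones.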
